A study of Homo sapiens with 7 samples.

Results

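Peaks of HOXB13 acetylated at lysine 13 (HOXB13-K13ac) are described here over a 95 kb stretch of chromosome 16q22, from 67425000 to 67520000 on hg19, that holds HSD11B2 and its neighbours ZDHHC1 and ATP6V0D1. A peak of a deposited list was a member when it shared at least 1 bp with this stretch, and 58 of 148463 peaks in 6 lists did. The stretch was chosen by measured values, since an earlier treatment of the same lists had placed a dense run of replicated sites there. Its number of peaks and of replicated sites, and their enrichment, are therefore descriptions without a test. The data are from chromatin immunoprecipitation with sequencing (ChIP-seq), which measures where a protein sits on DNA and not how much RNA a gene makes. All 7 libraries are from C4-2B, an established castration-resistant prostate cancer cell line kept in charcoal-stripped serum, which is low in steroid hormones, with no other treatment. They comprise 3 HOXB13-K13ac precipitations, 2 precipitations with non-specific IgG and 2 inputs of sheared chromatin. Nothing in the labels says whether the 3 precipitations came from separate cultures. The title of replicate 1 opens with another number than those of replicates 2 and 3, and the labels do not say what that number stands for.

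HOXB13 is a homeobox transcription factor that marks the prostate lineage, and acetylation adds an acetyl group to a lysine of the protein. HSD11B2 encodes the type 2 11-beta-hydroxysteroid dehydrogenase, which turns cortisol into inactive cortisone and thereby keeps cortisol off the mineralocorticoid receptor in aldosterone-responsive tissue. ATP6V0D1 encodes the d1 subunit of the membrane part of the vacuolar proton pump, which acidifies lysosomes and other compartments. ZDHHC1 encodes a member of the DHHC family, enzymes that attach palmitate to cysteines of other proteins. Along the chromosome, ZDHHC1 comes first, from about 67428322 to 67450736, and is read from right to left. HSD11B2 follows from about 67465036 to 67471454 and is read from left to right. ATP6V0D1 lies from about 67471917 to 67515089 and is read from right to left, so that its end faces the end of HSD11B2. In the RefSeq order of genes, TPPP3 is the nearest protein-coding gene before ZDHHC1. A long noncoding RNA gene, LOC124903702, is listed between ZDHHC1 and HSD11B2, and its hg19 position was not available here. The long noncoding RNA gene ATP6V0D1-DT and then AGRP follow ATP6V0D1. No hg19 annotation was used here, so exons, introns and untranslated parts are not assigned, and gene ends are approximate.

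Peaks lay at or near the hg19 starts of ZDHHC1 and ATP6V0D1, and the 250 bases before each RefSeq start are printed to show their base composition. At both hg19 starts a replicate 2 peak called against input covered the start base, and the replicate 1 peaks did not. The printed bases need not all be under peaks. Of the 3 genes, 2 matched the RefSeq promoter table, whose build is GRCh38.p14 and not the hg19 of the peaks. The 2 starts lie further apart in RefSeq than in the hg19 coordinates used here. Unless the builds differ in length between them, at least 1 RefSeq start is not the hg19 start used for the distances. The stretch of ZDHHC1 is chr16:67416478-67416727 and that of ATP6V0D1 chr16:67481158-67481407 on GRCh38.p14, both on the minus strand. They are written 5′ to 3′ along the gene, and capitals mark CG dinucleotides.
ZDHHC1: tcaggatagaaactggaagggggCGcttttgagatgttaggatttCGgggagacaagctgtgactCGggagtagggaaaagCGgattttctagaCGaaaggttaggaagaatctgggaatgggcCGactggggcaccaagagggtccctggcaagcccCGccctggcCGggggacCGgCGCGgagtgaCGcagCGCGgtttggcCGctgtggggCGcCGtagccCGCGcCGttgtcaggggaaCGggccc
ATP6V0D1: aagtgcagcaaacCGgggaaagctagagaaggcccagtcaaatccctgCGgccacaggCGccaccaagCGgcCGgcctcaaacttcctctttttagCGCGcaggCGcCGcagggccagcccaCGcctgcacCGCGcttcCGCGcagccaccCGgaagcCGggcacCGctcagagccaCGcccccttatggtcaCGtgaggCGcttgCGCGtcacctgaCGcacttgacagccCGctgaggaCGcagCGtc
The ZDHHC1 stretch held 21 CG dinucleotides and that of ATP6V0D1 held 26, while the median over 35116 promoters of the table was 11. Fewer CG dinucleotides were found in 69.8% of these promoters than in ZDHHC1 and in 80.4% than in ATP6V0D1. The share of G and C was 63.2% for ZDHHC1 and 67.6% for ATP6V0D1, compared with a median of 58.0%. Motifs were searched on both strands. The HOXB13-type letters CAATAAA, CTCGTAAA, CTCATAAA and TTTATNG matched neither stretch. They were present in 3.66%, 0.117%, 0.795% and 8.93% of all promoters, in that order. Read on the other strand, every CAATAAA is also a TTTATNG. The forkhead-type letters TGTTTAC (2.98% of promoters) and TGTTTGC (3.23%) and the AP-1 letters TGACTCA (4.20%) also matched neither stretch. The SP/KLF letters GGGCGG, present in 42.6% of promoters, matched once in ZDHHC1, beginning at base 158 of the printed run, and did not match in ATP6V0D1. These are matches of letters in the windows shown, and they say nothing about the factors themselves.

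Of the 58 peaks, 23 belonged to replicate 1, 16 to replicate 2 called against input, 3 to replicate 2 called against IgG, 1 to replicate 3 called against input and 15 to a list whose name matches no library. The replicate 3 list against IgG, which holds 1 peak in all, had 0 here. Density was 24.2 peaks per 100 kb in replicate 1 and 16.8 in replicate 2 against input. Over the whole span of each list these densities were 1.38 and 1.51 peaks per 100 kb. The single peak of replicate 3 corresponds to 1.05 per 100 kb, compared with 0.608 over its whole list. Peaks covered 18722 bp (19.7% of the stretch) in replicate 1 and 15008 bp (15.8%) in replicate 2, and 185 bp (0.195%) in replicate 3, where the whole-list share was 0.158%. Enrichment is given as the authors' fold enrichment at the summit, the highest point of a peak, over the local background of the control. The control is input or IgG as named, and for replicate 1 it is not named. Each value comes from a single list without read counts, so depth is unknown and no error can be attached to it.

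**Figure D1:**
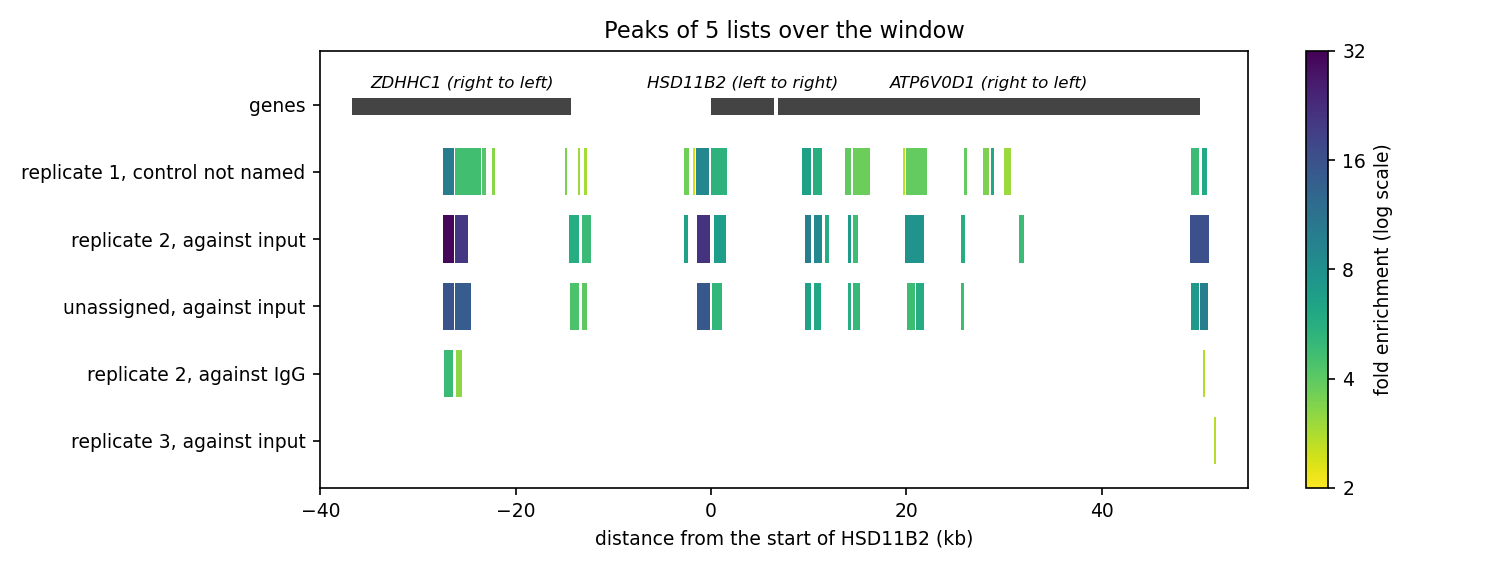
Peaks of 5 lists over the stretch, with distance from the start of HSD11B2 in kb on the horizontal axis and 1 row per list, each box a peak coloured by fold enrichment on a log scale; gene bodies are grey bars with their direction. Replicate 1 (control not named), replicate 2 against input and the list tied to no library share blocks in ZDHHC1, before HSD11B2 and in ATP6V0D1. Replicate 3 against input has 1 peak at the right end.

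Peaks of replicates 1, 2 and 3 (against input for 2 and 3) were merged where they touched, and a merged region with peaks of at least 2 libraries was called a replicated site. The stretch held 24 merged regions, of which 14 were replicated sites, and in the whole series 41.2% of 65675 merged regions were replicated. All 14 rested on replicates 1 and 2. None of the 24 regions held peaks of all 3 libraries, a pattern found at 6.99% of regions in the series. Without replicate 1 or without replicate 2 the number of replicated sites was 0, and without replicate 3 it stayed at 14. The overlap rule also mattered, since 7 sites met a shared 0.5 of both peak widths and 5 had summits within 100 bp. Series shares under these rules were not computed. The median summit distance was 179 bp in the stretch and 80.0 bp over the series, so the typical site of the series was within 100 bp. Of the 23 replicate 1 peaks, 16 touched a replicate 2 peak (76.9% in the whole list). Of the 16 replicate 2 peaks, 14 touched a replicate 1 peak (62.9% in the whole list). The q of a peak is its p after the peak caller's correction over all positions. At a −log10 q threshold of 5, 16 of 23 replicate 1 peaks remained (80.7% of the whole list) and 13 of 16 replicate 2 peaks did (67.2% of the whole list). The sites are numbered 1 to 14 below in the order of their positions. Sites 1, 8 and 9 met both the width rule and the summit rule. Sites 5, 6, 7 and 12 met the width rule only, among them sites 6 and 7 at the HSD11B2 start. Sites 2 and 14 met the summit rule only.

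ZDHHC1 held the strongest site of the stretch. Site 1, from 67437576 to 67438754, lay inside the gene, and its fold enrichment was 10.08 in replicate 1 and 30.61 in replicate 2. The −log10 q there was 62.8 in replicate 1 and 82.9 in replicate 2. The replicate 1 summit was 12.4 kb downstream of the gene start and the replicate 2 summit 12.3 kb, 66 bp apart. Site 2, from 67438812 to 67441513, followed within 100 bp and had a fold enrichment of 4.64 in replicate 1 and 20.42 in replicate 2. Its summits were 10 bp apart, the closest of the 14 sites, although the replicate 1 peak was 2702 bp wide and the replicate 2 peak 1328 bp. As a ratio, the folds of the replicates also differed most here, with a replicate 2 value 4.40 times that of replicate 1.

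The start of ZDHHC1 was marked weakly. Site 3, from 67450504 to 67451659, contained the start, with fold enrichments of 3.04 in replicate 1 and 5.76 in replicate 2. The replicate 2 peak covered the start itself. The replicate 1 peaks left it uncovered, with summits 563 bp downstream and 811 bp upstream of it. The downstream one, from 67450045 to 67450318 with a fold of 3.48, was present in replicate 1 alone. Site 4, from 67451822 to 67452715 in front of the gene, was lower still, at 2.91 in replicate 1 and 4.87 in replicate 2. Sites 3 and 4 were no longer replicated at a −log10 q threshold of 5. Thus sites 1 and 2, within the gene body, lay several kb away from the start and had higher folds than sites 3 and 4 in both libraries.

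HSD11B2 carried its highest enrichment directly in front of its start. Site 6, from 67463549 to 67464973, ended 63 bp before the start of the gene, with a fold enrichment of 8.85 in replicate 1 and 21.22 in replicate 2. The −log10 q was 40.7 and 45.4 in the same order. Its summit was 662 bp upstream of the start in replicate 1 and 402 bp upstream in replicate 2. Site 7, from 67464994 to 67466635, began just after site 6 and contained the start, with a fold of 5.40 in replicate 1 and 6.83 in replicate 2. Its summits were inside the gene, 415 bp (replicate 1) and 726 bp (replicate 2) downstream of the start. The replicate 1 peak covered the start base, and the peaks of replicate 2 and of the list tied to no library lay on either side of it. Sites 6 and 7 were thus highest on different sides of the HSD11B2 start, and the upstream one was the stronger in both libraries.

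Site 5, from 67462247 to 67462764, lay further upstream, with summits 2.67 kb (replicate 1) and 2.54 kb (replicate 2) before the HSD11B2 start. Its fold was 3.63 in replicate 1 and 6.47 in replicate 2. It was the only replicated site of the stretch that the list tied to no library lacked. No list had a peak in the 9.53 kb from 67452716 to 67462246, between site 4 and site 5. The rest of HSD11B2 was also free of peaks: no list had one in the 7.76 kb from 67466636 to 67474394, which takes in the later part of HSD11B2, the short interval after it and the end of ATP6V0D1. Peaks of replicate 1 covered 24.9% of HSD11B2 and those of replicate 2 covered 18.2%, and in each library this was 1 peak.

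ATP6V0D1, the longest of the 3 genes at 43.2 kb, was touched by 7 of the 14 replicated sites, of which 6 lay inside the gene and site 14 at its start. The replicate 1 summits of the 6 inner sites lay between 24068 and 40003 bp downstream of the start, in the part of the gene nearer to HSD11B2. Site 8, from 67474395 to 67475317, was the highest of them, with a fold of 6.57 in replicate 1 and 9.78 in replicate 2. Site 9, from 67475464 to 67476362, followed with 5.58 in replicate 1 and 8.71 in replicate 2. The other 4 were lower. Site 10, from 67478778 to 67479413, had 3.93 in replicate 1 and 7.01 in replicate 2. Site 11, from 67479526 to 67481325, had 3.73 and 4.78 in that order, and at a −log10 q threshold of 5 it was no longer replicated. Site 12, from 67484689 to 67487163, was the second widest of the stretch at 2475 bp, with 3.88 in replicate 1 and 7.74 in replicate 2. Its summits in replicates 1 and 2 were 965 bp apart, the widest distance of the 14. Site 13, from 67490621 to 67491246, had 3.89 in replicate 1 and 5.74 in replicate 2.

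The start of ATP6V0D1 was marked by site 14, from 67514110 to 67516072. The 250 bases before ATP6V0D1-DT, chr16:67481144-67481393 on the plus strand of GRCh38.p14, overlap those before ATP6V0D1. Site 14 therefore cannot be credited to ATP6V0D1 alone. In replicate 1 site 14 consisted of 2 peaks beside the ATP6V0D1 start. The higher had a fold of 6.03 and a summit 351 bp upstream, the other 4.85 and a summit 220 bp downstream. In replicate 2 it was 1 peak of 1963 bp that covered the start, with a fold of 16.24 and its summit 407 bp upstream. Of the 3 gene starts, that of ATP6V0D1 and that of HSD11B2 therefore had a peak with its highest summit upstream and a fold of 6.03 or more in both libraries, and that of ZDHHC1 had lower values. Between site 14 and the nearest peak inside the gene there were 17.1 kb without a peak in any list, from 67497040 to 67514109, the longest such interval in the stretch.

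**Figure D2:**
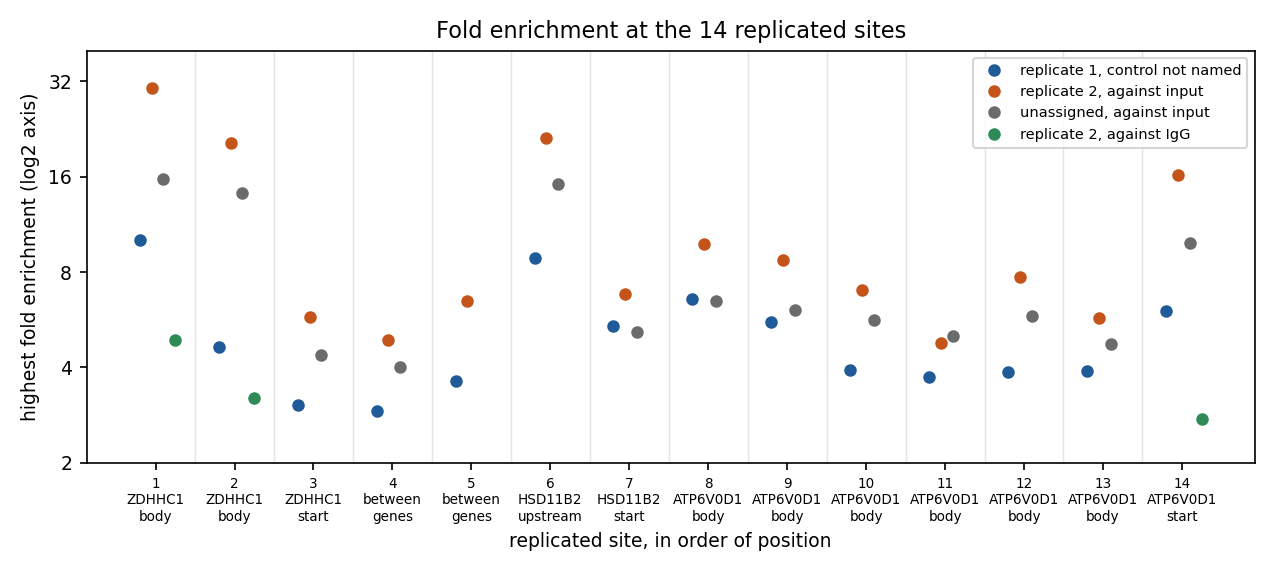
Highest fold enrichment (vertical, log2 axis) at each of the 14 replicated sites, numbered in order of position, with points for replicate 1, replicate 2 against input, the list tied to no library and replicate 2 against IgG. Sites 1, 2, 6 and 14 stand above the others in replicate 2, at 16.24 to 30.61, and replicate 2 lies above replicate 1 at every site.

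Replicate 2 had the higher fold at 14 of 14 sites, and in the whole series at 88.3% of the 26760 sites with peaks of replicates 1 and 2. The median ratio of the replicate 2 fold to the replicate 1 fold was 1.78 in the stretch (range 1.26 to 4.40) and 1.65 over the series. The controls of these lists may differ, so the ratio is not a difference in occupancy. Ranked among the 26760 sites, most sites of the stretch were in the lower part. The fold was above the series median at 4 of 14 sites in replicate 1 and at 5 of 14 in replicate 2. The median fold was 4.28 in the stretch and 5.85 over the series in replicate 1, and 7.38 and 9.38 in replicate 2. Site 1 exceeded 81.0% of the series' sites in replicate 1 and 96.3% in replicate 2. Site 6 exceeded 74.2% and 88.9% in the same order, and site 14 exceeded 51.9% and 78.8%. Site 2 stood apart, exceeding 34.4% of sites in replicate 1 and 87.6% in replicate 2. The lowest ranks were those of site 4, with 5.71% of sites lower in replicate 1, and of site 11, with 7.66% lower in replicate 2. Summits of the 2 libraries were a median of 179 bp apart in the stretch and 80.0 bp over the series. The sites were of similar width, with a median of 1168 bp in the stretch and 1012 bp over the series. The density of sites in the stretch was thus not matched by high enrichment at most of them.

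**Figure D3:**
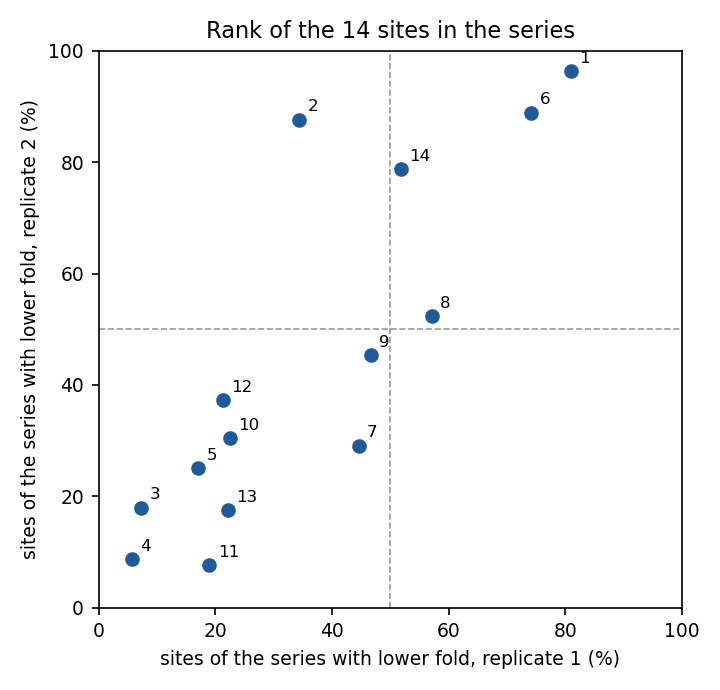
Rank of the 14 sites among 26760 sites of the series with peaks of replicates 1 and 2, as the percentage of sites with lower fold in replicate 1 (horizontal) and replicate 2 (vertical); dashed lines mark the middle rank and numbers name the sites. Sites 1, 6, 8 and 14 lie above the middle in both libraries, site 2 in replicate 2 only, and the other 9 below it in both.

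Regions found in a single library numbered 10. Replicate 1 alone had 7, with folds of 2.44 to 6.10, and 3 of them, from 67492931 to 67495741, lay side by side in ATP6V0D1. The one with 6.10, from 67493661 to 67493988, had a −log10 q above those of sites 7 and 9 in the same library (14.2 and 17.5), and no counterpart in any other list. Replicate 2 alone had 2, both inside ATP6V0D1, with folds of 5.70 and 4.84. Replicate 3 had 1, from 67516548 to 67516732, beyond the start of ATP6V0D1 and 1.54 kb upstream of it. This peak was 185 bp wide with a fold of 2.73, and its −log10 q was 0.798. It touched no peak of another list. Only 0.346% of the replicate 3 list had a lower fold. Replicate 3 therefore had no peak at any of the 14 sites, including sites 1 and 6. In the series, 4591 of 27046 replicated sites held peaks of all 3 libraries, so most replicated sites lacked 1 library. Over the whole replicate 3 list the median fold was 4.40, and 6.28% of its peaks reached a −log10 q of 5. The shares given above were 80.7% for replicate 1 and 67.2% for replicate 2 against input. The lists of replicates 1 and 3 are told apart by the spelling of their names alone, so their replicate numbers rest on that spelling.

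**Figure D4:**
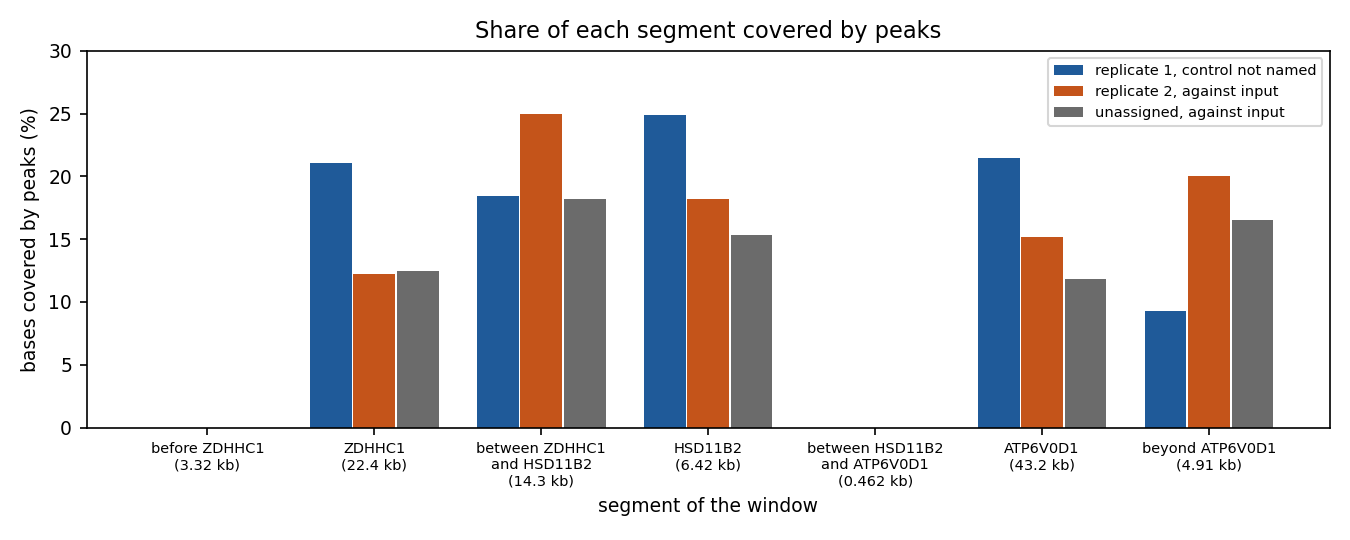
Percentage of the bases of each segment covered by peaks (vertical, from 0), for the 7 segments of the stretch with their lengths in kb, in replicate 1, replicate 2 against input and the list tied to no library. Coverage inside ZDHHC1 and ATP6V0D1 was higher in replicate 1 (21.1% and 21.5%) than in replicate 2 (12.2% and 15.2%), and between ZDHHC1 and HSD11B2 it was higher in replicate 2 (25.0% compared with 18.4%).

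IgG is the measured background of the precipitation, and replicate 2 was also called against it. Of the 14 sites, 3 had a peak in that list (23.2% of replicated sites in the series), namely sites 1, 2 and 14. Site 1 had a fold of 4.88 over IgG with a −log10 q of 4.11. Site 2 had 3.20 with a −log10 q of 1.01, and site 14 had 2.75 with a −log10 q of 0. A q of 0.05 or less was thus reached by 1 of the 3 peaks (21.5% of the whole IgG list). The summits of the 3 peaks fell on the same bases as summits called against input, as did 47.8% of summits in the whole IgG list. Site 6, in front of HSD11B2, had a fold of 21.22 over input in the same library and no peak in the IgG list, nor had any other site in HSD11B2 or inside ATP6V0D1. Peak lists of the IgG and input libraries themselves were not analysed here, so the background at these sites is not shown.

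The list tied to no library had 15 peaks in the stretch. All 15 touched a peak of replicate 1 (76.7% of that whole list did) and a peak of replicate 2 against input (90.9% of the whole list). It held a peak at 13 of the 14 sites (86.9% of replicated sites in the series) and at 0 of the 10 regions of a single library (16.5% of such regions in the series). Its highest folds were 15.71 at site 1, 15.15 at site 6, 14.21 at site 2 and 9.85 at site 14, the same 4 sites that were highest in replicate 2. With this list in place of replicate 3, 13 sites had peaks in all 3 lists. Its source library is unknown here, so these values are not a further replicate.

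The stretch, chosen for its density, had more peaks than the same length on either side in replicates 1 and 2 but not in replicate 3. In the neighbouring 95 kb before it, replicate 1 had 2 peaks and replicate 2 had 6, and in the 95 kb after it each had 5. Replicate 3 had 0 peaks before the stretch and 2 after it, with folds of 4.40 and 4.50, compared with its 1 peak inside. These neighbours were not weak throughout, since the highest replicate 1 fold after the stretch was 23.6, above the 10.08 of site 1. The nearest peaks outside the limits were 11.5 kb before (replicate 2, fold 5.76) and 35.1 kb after (replicate 2, fold 8.52). The nearest inside were site 1, 12.6 kb from the low limit, and the replicate 3 peak, 3.27 kb from the high limit. Small shifts of the limits would therefore add or remove few peaks.

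When replicated sites no more than 10 kb apart were joined, sites 1 to 13 formed 1 cluster of 53.7 kb, from 67437576 to 67491246, and site 14 remained by itself. The cluster joined ZDHHC1 and HSD11B2 only across the interval of 9.53 kb without peaks, and with a gap of 5 kb the largest cluster had 6 sites. In the series, 25 clusters had at least 10 sites. They were compared by the number of peaks per 10 kb in the lists of replicate 1, replicate 2 against input, replicate 3 against input and replicate 2 against IgG. The present cluster had 3.35, 2.61, 0 and 0.373 in that order. The most similar lay on chromosome 1 from 10821740 to 10875565, with 3.72, 2.42, 0.372 and 0.186 and a Euclidean distance of 0.584 over these 4 lists. Another on chromosome 1, from 37920710 to 37966289, had a distance of 0.723, and one on chromosome 12, from 64943582 to 65006251, had 0.983. Of these, only the cluster on chromosome 12 also lacked replicate 3 peaks.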

How the data were processed

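The sources were 6 peak lists from HOXB13-K13ac ChIP-seq. The builds hg19 and GRCh37 and the tools MACS2, Bowtie2, BWA and CASAVA 1.4 are named in the submitters' processing notes, without roles. How peaks were thresholded, filtered or pooled was not given in the sources used here. Fold enrichment at the summit, a ratio to the control, was deposited by the authors, as were −log10 p and −log10 q. Summit positions were deposited too.

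The lists have no read counts, so depth is unknown. Lists were tied to libraries by the spelling of the labels. The software was pandas 2.3.3, NumPy 2.4.6 and matplotlib 3.10.9 under Python 3.11.15. Peaks were merged when they shared 1 bp, replicated with at least 2 libraries and stitched within 10 kb. Positions are counted from 1. The code was tested on simulated lists. No hypothesis test was made.

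The stretch, its genes, the rules and the alternatives were chosen with earlier results of these data known. All replicated sites are named, and similar clusters by distance over 4 lists. The strand of HSD11B2 was taken from general knowledge and that of the other genes from RefSeq. Motifs at summits, exon positions and a planned count over other corticosteroid, proton pump and DHHC genes need an hg19 genome or annotation and were not analysed here.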

Additional observations from a re-analysis of the deposited data

Results flagged for a closer look

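The list whose name matches no library had 15 peaks in the stretch. It is named here because it stands outside the comparisons of the 3 replicates. All 15 peaks touched a peak of replicate 1 and one of replicate 2, which 76.7% and 90.9% of the whole list did. At site 3 its summit fell on the same base as that of replicate 2, which was true of 1 of the 15 peaks and of 3.45% of the whole list. A control list to set beside it was not analysed here, and its source was not tested.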

How the results depend on the processing

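Of 41 alternative values, 28 stayed within 1.5 times the value reported and 13 did not. The 28 include values of 0 that a stricter rule could not change, so this tally is not a measure of stability. The 14 replicated sites became 7 when 0.5 of both widths had to be shared and 5 with summits within 100 bp. Series shares under these rules were not computed. The number of replicated sites ranged from 0 to 14 when a replicate was left out. It was 0 without replicate 1 or 2, which follows from the absence of replicate 3 peaks at these sites. The 3 sites also called against IgG became 1 under the same width rule, 0 with a −log10 q of at least 5 and, in a setting chosen after seeing the data, 1 with IgG peaks limited to a q of 0.05. They ranged from 0 to 3 when replicate 1 or 3 was left out. Sites of all 3 libraries numbered 0, and 13 with the list tied to no library in place of replicate 3. At a −log10 q of at least 5 replicate 3 had 0 peaks against input and replicate 2 had 0 against IgG. The largest cluster had 6 sites with a gap of 5 kb and 13 with 20 kb. Within 2 kb of the ZDHHC1 start there were 5 peaks, compared with 3 within 1 kb. No paired analysis was possible because the IgG and input libraries have no peak list used here and no test was made. Depth is unknown, so an absent peak cannot be told apart from too few reads.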
